A study of Homo sapiens with 2 samples.

Results

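Among the RNA contacts recorded for RBM47, 819 of the 233546 listed clusters lay in a single stretch of the minus strand of chromosome 3 that carries no gene in the authors' annotation. RBM47 is an RNA-binding protein, and a cluster is a run of overlapping tags, that is, of sequenced RNA fragments that had been crosslinked to it and counted once each. The members were selected on their position: the clusters with the label deep intergenic and no other, on the minus strand, from 105454317 to 105646919. That interval of 192.6 kb had been chosen from the tag counts themselves, because tags were dense there. The number of tags in the stretch, its density and its rank are therefore descriptions, and they carry no test. Coordinates are those of the deposited table, for which the submitters' processing notes name the build hg18, and their first base may be numbered 0 or 1. No sequence of that build was at hand, so the underlying bases were not examined and none are printed.

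The cells were MDA231-BrM2a, a non-clonal derivative of the breast cancer line MDA-MB-231 with a tendency to colonise brain, into which wild-type RBM47 with a Flag tag had been introduced under the control of doxycycline. Both libraries came from this 1 group, after 3 days of 1 ng/ml doxycycline. The protein was thus introduced and tagged, and contacts of the endogenous protein were not measured. Without a control library, how many tags the pull-down would yield here in the absence of Flag-RBM47 is unknown. Nothing in the labels says whether the replicates were separate cultures, so the spread between them may be technical.

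In HITS-CLIP, ultraviolet light joins a protein to the RNA it touches inside living cells, and the protein is then pulled down with the RNA fragments it holds. RBM47 carries RNA recognition motifs and is known for roles in the nucleus, among them splicing and the editing of apolipoprotein B messenger RNA as a partner of APOBEC1, as well as for binding to the 3′ ends of messenger RNAs. A protein of this kind can contact any RNA that is made, including introns and transcripts that no gene catalogue lists. Each tag records an RNA of a known strand, so a run of tags on 1 strand traces RNA that has the sequence of that strand. The number of tags at a place depends both on how much RNA is present and on how often the protein touches it, and these cannot be told apart without a measure of RNA level.

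Over the whole table, replicate 1 contributed 999047 tags and replicate 2 contributed 3489697. A cluster was listed if both libraries had a tag in it and the total was 5 or more. As a check of the cell type, the mesenchymal genes VIM, CD44, CAV1, AXL and SPARC, which MDA-MB-231 is known to express, had between 974 and 8676 tags each. The luminal genes ESR1, GATA3 and FOXA1 had no listed cluster, and ERBB3 had 1 cluster with 6 tags.

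The stretch held 53141 tags by the authors' total, 11635 from replicate 1 and 41920 from replicate 2. Scaled to 100000 tags of each library in the table, it had 1165 tags in replicate 1 and 1201 tags in replicate 2, a mean of 1183 ± 25.9 (SD, n = 2). The libraries thus differed little for the stretch as a whole. It made up 0.351% of all clusters but 1.20% of all tags. Of the deep intergenic class it was 2.04% of 40168 clusters and held 9.04% of the tags in replicate 1 and 9.96% in replicate 2, or 9.50% ± 0.652 (SD, n = 2).

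To place that number, the tags of all deposited clusters were summed for each of 7698 gene symbols. The sums of 3 genes were higher than the 53141 tags of the stretch. These were NEAT1 with 95142 and MALAT1 with 72767, which encode abundant nuclear noncoding RNAs, and EXT1 with 54399, which encodes a glycosyltransferase of heparan sulfate synthesis. EXT1 did not stand apart from the stretch between libraries. Per 100000 tags of a library, EXT1 had 1079 in replicate 1 and 1263 in replicate 2, on either side of the stretch's 1165 and 1201.

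The tags formed a nearly unbroken profile along the stretch. Position is given here as the distance from the 5′ edge, at 105646919, since RNA of the minus strand runs towards lower coordinates. The first 176 bins of 1 kb counted from that edge all held tags. Up to 175 kb the lowest 1 kb bin had 42 tags, the median 244 and the highest 1022. The union of the clusters covered 73.8% of the 192.6 kb. Of the 818 intervals between consecutive members, 622 were shorter than 50 nt, the median was 12.5 nt, and 4 were longer than 1000 nt.

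**Figure D1:**
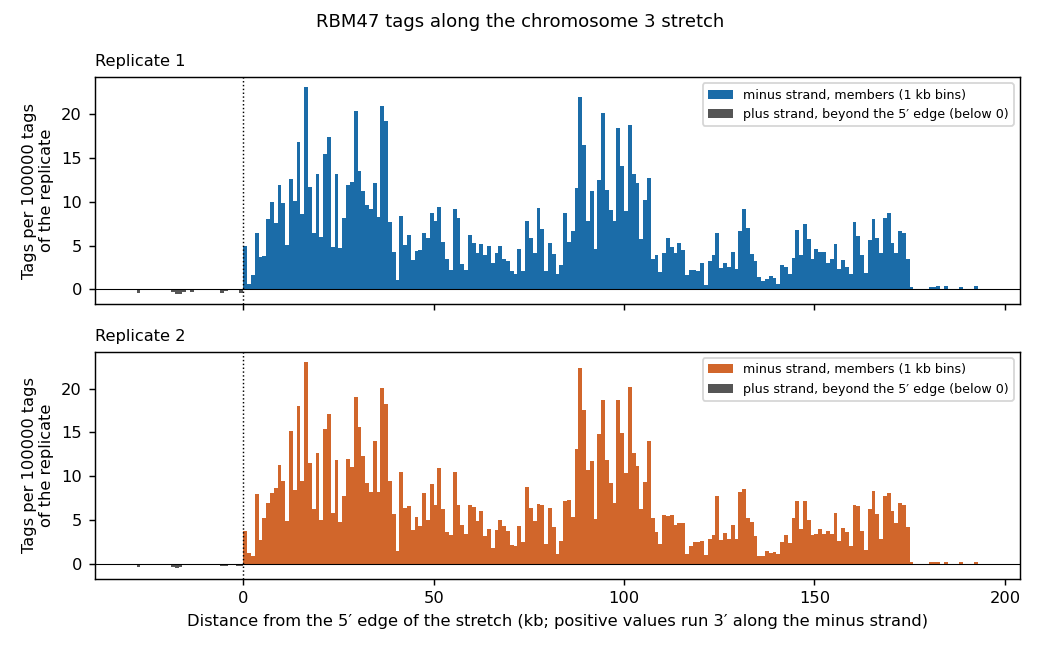
Tags of the members in 1 kb bins along the minus strand, by distance in kb from the 5′ edge of the stretch, for replicate 1 (upper) and replicate 2 (lower), each in tags per 100000 tags of that library; grey bars below 0 are the plus-strand clusters beyond the edge. Both libraries show the same 2 tall zones, at 10 to 40 kb and 80 to 110 kb, and a fall to near 0 at 175 kb.

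Joining members closer than 1000 nt left 1 block of 175.8 kb, from 105471129 to 105646919, with 807 members and 99.9% of the tags. Within this block 80.4% of the bases were covered, at 301.9 tags per kb. The other 12 members lay downstream, spread over 16.8 kb beyond the block. They held 70 tags together, 21 from replicate 1 and 50 from replicate 2, with 5 to 8 tags each.

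The 3′ end of the block was abrupt. The 6 bins of 1 kb between 169 and 175 kb had 178 to 367 tags each. The next bin had 11 tags, 3 from replicate 1 and 8 from replicate 2, and the following 4 had none. Measured from the last member of the block, the 10 kb inside held 2411 tags and the 10 kb beyond held 48. The joining rule ended the block at a gap, here of 4757 nt, so a drop just beyond it was set in advance. In each library the drop was of the same kind, from 538 to 14 tags in replicate 1 and from 1900 to 35 tags in replicate 2.

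At the 5′ end, the outermost member at 105646858 to 105646919 had 14 tags, 1 in replicate 1 and 13 in replicate 2. Its neighbour at 105646727 to 105646826 had 62 tags, 27 in replicate 1 and 35 in replicate 2. The first kb from the edge held 169 tags, 49 from replicate 1 and 130 from replicate 2, the second kb 52 tags, and the first 10 kb 2562 tags. Beyond the edge, no further cluster on the minus strand was listed for 116.7 kb, where a deep intergenic cluster at 105763593 to 105763638 had 5 tags. At the opposite limit, the last member inside at 105454317 to 105454371 had 5 tags. The next minus-strand cluster outside was an intron cluster of ZBTB11, a zinc finger gene, 2587 kb away, also with 5 tags. The limits of the rule are the outer ends of the first and last members. Their match with the run of listed clusters was thus set by the choice of interval. Whether clusters below the minimums of the table lie outside these limits is not known.

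Within the stretch, all 819 clusters listed on either strand and under any label were members. No plus-strand cluster was listed inside it. The table lists clusters above a minimum, so this gives no upper limit for plus-strand tags.

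Plus-strand clusters began just beyond the 5′ edge. The nearest was 393 nt away, at 105647312 to 105647358, with 2 tags in replicate 1 and 3 in replicate 2. Within 30 kb of the edge there were 18 such clusters, labelled deep intergenic and reaching from 105647312 to 105674678. They had 119 tags in all, 35 from replicate 1 and 86 from replicate 2. Their median was 6 tags and their highest 12, so each sat close to the minimum of the table. The 30 kb beyond the opposite limit had no listed plus-strand cluster. Minus-strand RNA inside and plus-strand RNA beyond the edge thus ran in opposite directions, at very different levels of tags. Whether they began at the same place was not tested. The flank beyond the 5′ edge was examined after the profile had been seen.

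The nearest clusters with a gene symbol were far away on both sides. On the plus strand, a 5′UTR cluster of ALCAM, a cell adhesion molecule of the immunoglobulin family, lay 921.5 kb beyond the 5′ edge and had 18 tags. On the minus strand, the nearest was an intron cluster of CBLB, an E3 ubiquitin ligase, 1226 kb beyond that edge with 7 tags. In the other direction, an intron cluster of ZPLD1, which encodes a zona pellucida-like domain protein, lay 2143 kb away with 5 tags. ALCAM had 433 clusters with 7428 tags in all, CBLB 63 clusters with 411 tags and ZPLD1 4 clusters with 21 tags, each lower than the stretch. The RefSeq catalogue of GRCh38.p14 now places 19 genes between ZPLD1 and ALCAM, of which 10 are long noncoding RNA genes, 8 pseudogenes and 1 a microRNA gene. Since the builds differ, none of them was matched to the stretch.

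The stretch was not uniform. In bins of 10 kb, the tags rose from 2562 in the first bin to 5299, 4939 and 5363 in the next 3, between 10 and 40 kb. They then ranged from 1916 to 2722 between 40 and 80 kb. A second tall zone followed at 80 to 110 kb, with 3867, 5427 and 4204 tags. From 110 to 180 kb the bins had 1256 to 2588 tags. The 2 tall zones made up 60 kb of the stretch.

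The share of each zone was alike in the libraries. The zone at 10 to 40 kb held 29.8% of the stretch's tags in replicate 1 and 29.1% in replicate 2, or 29.5% ± 0.485 (SD, n = 2). The zone at 80 to 110 kb held 25.1% and 25.4%, or 25.3% ± 0.221 (SD, n = 2). The lower zone between them, at 40 to 80 kb, held 17.1% and 17.8%. The far zone at 110 to 180 kb held 22.7% in both. These zones were drawn after the profile had been seen.

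Across the 20 bins, Spearman's rho between tags and distance from the 5′ edge was -0.74. Over the 18 bins with at least 1000 tags it was -0.64, so the decline did not rest on the sparse last bins alone. It was no steady slope, as the second tall zone shows. Bins are neighbours in 1 RNA population and in 1 pair of libraries, so these values are descriptions.

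The profile was repeated closely by the second library. Across the 20 bins, Spearman's rho between replicates was 0.982 and Pearson's r of log2(tags + 1) was 0.998. The 20 bins include the sparse last 2, with 58 and 12 tags, which widen the range of tags behind r. At a resolution of 1 kb, over the first 175 bins, rho was 0.970 and r was 0.964. Across the 819 members rho was 0.894 and r was 0.918. Among the other 39349 deep intergenic clusters rho was 0.330, and 63.4% of those had no more than 2 replicate 1 tags, against 22.5% of the members. In the other dense runs of deep intergenic clusters described further on, rho was 0.675 for the run on chromosome 11 and 0.806 for that on chromosome 2. In clusters of at least 100 tags, where counting error weighs less, rho was 0.894 for 138 members and 0.754 for 318 other deep intergenic clusters. These values share the libraries and their depth, and the difference between them was not tested. Members were chosen where tags were dense, and rho depends on the number and spread of tags, so these contrasts are descriptions.

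**Figure D2:**
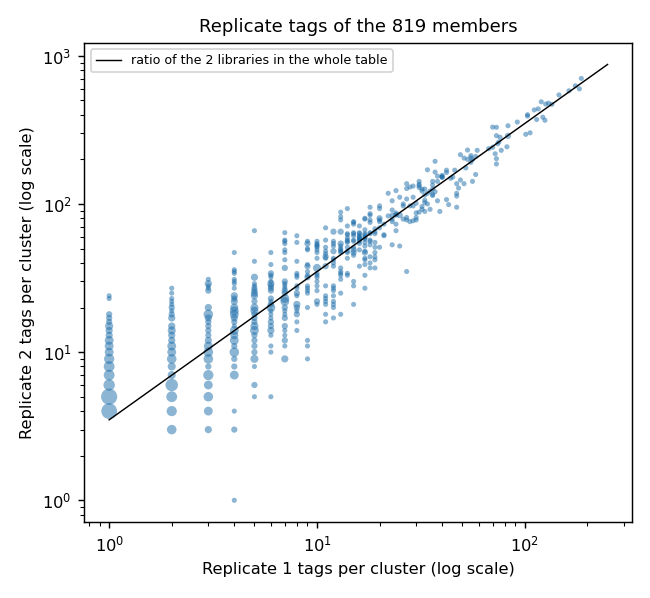
Replicate 2 tags against replicate 1 tags for the 819 members, on log scales; larger points stand for several members with the same pair of counts, and the line is the ratio of 3.49 between the libraries over the whole table. The members follow the line from 1 tag to 187 tags in replicate 1, with a wider scatter at low counts.

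The cluster with the most tags lay at 105544892 to 105545809, 101.1 kb from the 5′ edge, with 187 tags in replicate 1 and 703 in replicate 2. Scaled to 100000 tags of a library, these were 18.7 and 20.1 tags. The next, at 105547839 to 105548632, had 175 and 627 tags, and the third, at 105608904 to 105609646, had 183 and 598 tags. The third lay in the zone nearer the 5′ edge, at 37.3 kb, and the first and the second in the farther zone.

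The pair at 105557760 to 105558365 and 105556987 to 105557646 had 163 and 146 tags in replicate 1 and 580 and 544 in replicate 2. They were 114 nt apart. The cluster at 105617474 to 105618172 had 130 tags in replicate 1 and 479 in replicate 2. A neighbour at 105618171 to 105618650, which starts 1 nt before its listed end, had 122 and 385 tags. Whether such adjacent clusters mark 1 contact or several was not tested.

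Of the remaining clusters among the first 10, that at 105633552 to 105634483 had 120 and 489 tags. That at 105623639 to 105624440 had 135 and 470 tags, and that at 105630457 to 105631167 had 126 and 472. The last of the 10, at 105539771 to 105540618, had 116 and 438 tags. Among these 10, 5 lay between 10 and 40 kb and 5 between 80 and 110 kb. Of the first 20, 13 lay in the nearer and 7 in the farther zone. Both zones were drawn where tags were high, so this placement was largely set in advance. Of the 138 members with at least 100 tags, 47 lay between 10 and 40 kb, 35 between 80 and 110 kb, 24 between 110 and 180 kb, 23 between 40 and 80 kb and 9 in the first 10 kb. These spans differed in length and held 107, 129, 341, 187 and 43 members, in that order.

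The tags were spread over many members. The first cluster held 1.67% of the tags of the stretch, and the 10 highest of each library held 12.8% in replicate 1 and 12.9% in replicate 2. The 87 members with the most tags held 50% of them. The 138 members of at least 100 tags held 61.8%, while the 129 members under 10 tags held 1.62%. The top 10% of members held 48.8% of the tags, against 39.5% for the top 10% of the other deep intergenic clusters, 33.2% for introns and 59.1% for 3′UTRs. In the dense run on chromosome 11 the top 10% held 45.1%.

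The clusters were larger than most in the table. The median member had 29 tags, 6 in replicate 1 and 22 in replicate 2, with an interquartile range of 14 to 68. The median was 8 tags in the other deep intergenic clusters, 7 in introns and 13 in 3′UTRs. At least 100 tags were reached by 16.8% of the members, 0.808% of the other deep intergenic clusters, 0.307% of intron clusters and 6.38% of 3′UTR clusters. In the dense runs on chromosome 11 and chromosome 2, 3.47% and 7.70% of the clusters reached this number. Of the 456 deep intergenic clusters with at least 100 tags, 30.3% were in the stretch. Since the stretch was chosen for its tags, these contrasts describe it and do not test it.

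**Figure D3:**
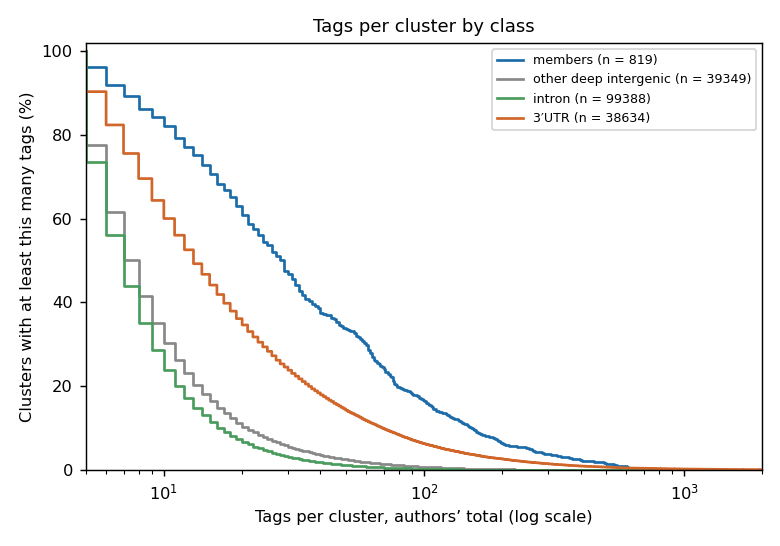
Percentage of clusters with at least the number of tags on the x axis (log scale, authors' total) for the 819 members, the other deep intergenic clusters, intron clusters and 3′UTR clusters. The curve of the members lies above the other 3 classes from 6 to beyond 100 tags, at 84.2% for 10 tags and 16.8% for 100 tags.

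Length, taken as the listed end minus the listed start, differed in the same direction. The median member was 115 nt long, and lengths ran from 28 to 1002 nt. The longest, at 105625296 to 105626298, had 103 tags in replicate 1 and 392 in replicate 2. The median was 80 nt in the other deep intergenic clusters, 78 nt in introns and 92 nt in 3′UTRs. In the dense runs on chromosome 11 and chromosome 2 it was 96 nt and 100 nt. Lengths of at least 200 nt were found in 27.6% of the members and 4.22% of the other deep intergenic clusters, and such members held 70.6% of the tags of the stretch.

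Tags rose with length across the members (Spearman's rho of 0.832). Clusters are built by joining tags that overlap, so length was not independent of the tags that chose the stretch. The medians at similar length are therefore descriptions too. Between 50 and 100 nt the median was 14.5 tags in 278 members and 7 in the other deep intergenic clusters. Between 200 and 400 nt it was 79.5 tags in 156 members and 43 in the others. The densest member was short. It lay at 105553254 to 105553368, was 114 nt long, and had 53 tags in replicate 1 and 231 in replicate 2, or 249 tags per 100 nt against a median of 24.9 over the members.

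The split of tags between the libraries was not part of the rule and could be tested. Each cluster was compared with the replicate 1 share of 22.3% over the whole table, by a two-sided exact binomial test with Benjamini-Hochberg adjustment over all 233546 clusters. Of all clusters, 0.0111% passed at an adjusted p of 0.05, and 0 of the 819 members did. With a beta-binomial model, which allows for extra spread between libraries, 0.00514% of all clusters passed and again 0 members. With so few calls in the table, a count of 0 does not set the members apart. Unadjusted, 36 members or 4.40% had p below 0.05 in the exact binomial test, against 3.04% of all clusters, and in the beta-binomial test 22 members or 2.69%, against 1.58% of all clusters. Clusters of few tags reach p below 0.05 less readily, and members had more tags than most, the trait that chose them. The part of tag number in these percentages was not tested. Both tests compare 2 libraries of 1 condition.

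The member with the smallest p was the neighbour of the outermost one, at 105646727 to 105646826, where replicate 1 supplied 43.5% of the tags (Wilson 95% interval 31.9 to 55.9). Its 27 and 35 tags gave an unadjusted p of 0.00018 and an adjusted p of 0.50 in the exact binomial test. Among the members with at least 100 tags, the share ran from 12.9% to 33.1%, with a median of 21.8%. The lowest was at 105604111 to 105604364, with 13 tags in replicate 1 and 88 in replicate 2, and the highest at 105638995 to 105639465, with 47 and 95. For the first 10 members by tags the share was 19.7% to 23.4%, and each of their intervals included the 22.3% of the table.

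For the stretch as a whole, the replicate 1 share was 21.7% (Wilson 95% interval 21.4 to 22.1). This interval lay below the 22.3% of the whole table. The other deep intergenic clusters had 23.6% (23.5 to 23.7), introns 24.1% (24.05 to 24.2) and 3′UTRs 21.1% (21.06 to 21.2). Every listed cluster had to have a replicate 1 tag, a condition that bears more on clusters of few tags, and its part in this order was not tested. In clusters with at least 100 tags, the share was 22.0% (21.5 to 22.4) in members, 21.5% (21.1 to 21.8) in the other deep intergenic clusters and 20.8% (20.7 to 20.9) in the whole table. The first pair of these intervals overlapped. With this minimum the interval of the members lay above that of the whole table, the reverse of the order without a minimum. These intervals treat tags as independent and cover counting error only. Along the stretch, 18 of the 20 bins of 10 kb had an interval that included the share of the table. Bins hold fewer tags than the whole stretch, so their intervals are wider. The share ran from 20.2% to 23.0% in the 18 bins with at least 1000 tags.

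**Figure D4:**
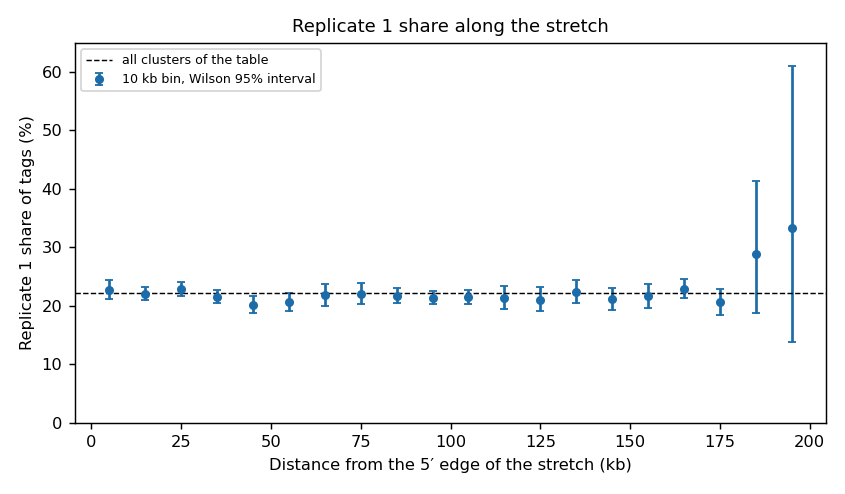
Replicate 1 share of tags (%) in each 10 kb bin of the stretch, by distance from the 5′ edge in kb, with Wilson 95% intervals; the dashed line is the 22.3% of the whole table. The 18 well-filled bins lie between 20.2% and 23.0%, and the last 2 bins, with 58 and 12 tags, have wide intervals.

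The stretch was then set beside other runs of deep intergenic clusters. When such clusters on 1 strand were joined over gaps of up to 20 kb, 2114 chains formed. The 819 members made up 1 chain by themselves, which ranked second by tags. The first, of 3340 clusters and 85121 tags, ran along chromosome 11 from 28680795 to 29544548 on the plus strand. The third, of 623 clusters and 21546 tags, ran along chromosome 2 from 188125402 to 188353418, also on the plus strand.

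The chromosome 3 stretch was the denser of the 3. It had 275.9 tags per kb of its span, against 98.5 on chromosome 11 and 94.5 on chromosome 2. Per 100000 tags of a library and per kb, the values were 6.05 and 6.24 in the libraries on chromosome 3, 2.16 and 2.24 on chromosome 11, and 2.11 and 2.14 on chromosome 2. Density chose the stretch, so this order is a description. Among the 161 chains of at least 50 clusters, it ranked first by tags per kb. Its clusters covered 73.8% of its span, against 48.2% on chromosome 11 and 37.5% on chromosome 2.

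The 3 chains were alike in strand. The opposite strand had no listed cluster within the chromosome 3 and chromosome 11 chains and 3 clusters with 29 tags within the chromosome 2 chain. They differed at the 5′ flank, where opposite-strand clusters of any label within 30 kb numbered 18 with 119 tags on chromosome 3, none on chromosome 11, and 29 with 227 tags on chromosome 2. All 18 on chromosome 3 were labelled deep intergenic, and 0 of the 29 on chromosome 2. The replicate 1 share was 21.7% on chromosome 3, 21.7% on chromosome 11 and 22.1% on chromosome 2, with overlapping intervals. The median cluster had 29 tags on chromosome 3, 13 on chromosome 11 and 16 on chromosome 2.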

How the data were processed

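HITS-CLIP libraries of 2 replicates of 1 group were analysed. After poly(A) tailing and reverse transcription with a barcoded primer, the authors collapsed mapped reads to unique tags and joined these into clusters, using Galaxy. The processing notes name Novoalign and hg18, with no aligner version. The authors deposited raw counts of tags for each cluster, in 1 column per replicate and a column for the total. Replicate columns were matched to the libraries by replicate number, and 0 columns were left without a match.

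The interval, members and comparisons were chosen with earlier results of these data known. Filters, ranks and profiles used the authors' total, and comparisons of libraries used the replicate columns. Cluster midpoints were placed in bins of 10 kb and 1 kb. Chains joined deep intergenic clusters over gaps of up to 20000 nt. Named clusters were the 10 with the most tags, the outermost, the longest and the nearest outside, and others were named after their values were seen. The exact binomial test was run over all clusters with Benjamini-Hochberg adjustment and tested on simulated data. A single group allowed no comparison of conditions. Intervals are Wilson intervals at 95%. Replicate 1 was the shallower library and limits single clusters. Python 3.11.15, numpy 2.4.6, scipy 1.17.1, pandas 2.3.3 and matplotlib 3.10.9 were used. Alternatives covered tag minimums, merging, chain gaps, bin widths, the expected share, the model and each replicate left out. The limit to the first 18 bins was added after the data were seen.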

Additional observations from a re-analysis of the deposited data

How the results depend on the processing

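Of 43 alternatives, 30 left the value within the spread between libraries, its 95% interval or, for counts, 1.5 times. For rho and for median length, the interval treats members or bins as independent. For the median tags, the spread is that of unscaled medians and so includes the difference in depth. These limits are a rough guide and do not measure stability. The other 13 alternatives moved the value beyond these limits. Whether an alternative turned a direction was not assessed. The number of clusters was 390 at a minimum of 30 tags, 197 when members closer than 50 nt were merged and 11 when those closer than 500 nt were. The share of deep intergenic tags was 13.8% at a minimum of 10 tags. The median length was 137 nt at 10 tags and 247 nt after merging at 50 nt. Across members of at least 30 tags rho between replicates was 0.878, and in bins of 20000 nt it was 1. With each replicate left out in turn, members with at least 10 tags numbered 305 to 644, the share of deep intergenic tags was 9.04% to 9.96%, the median was 6 to 22 tags and the 10 highest members held 12.82% to 12.88%. Leaving out replicate 2 gave the lower value in each of these. The rank by tags was 2 under every chain gap tried and in each library. No paired analysis was possible because the labels give 1 group only.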

Other observations

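In 212 of the 819 members, or 25.9%, the sum of both replicate columns exceeded the deposited total, and in 0 it fell short. The surplus came to 414 tags, with at most 9 in a member. Over all clusters of the table, 13.2% had one. All 168 members whose listed interval ran past the listed start of a neighbour, or the reverse, by 1 or 2 nt had a surplus, as did 44 of the other 651 members. Those 651 include 99 members that share a listed end or start with a neighbour, of which 3 had a surplus. If positions count from 1, these 99 overlap by 1 nt as well. In 33 members the surplus matched or exceeded the lower of the replicate counts, so the evidence for a tag in both libraries is weaker there. Without the 212 members the replicate 1 share of the stretch was 21.8%.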
